A study of Drosophila melanogaster with 2 samples.

Results

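The regions described here are the 2558 regions of the pooled dm6 peak list that reached the list's best q-value and yet were not kept by the reproducibility filter. They were chosen by the deposited values themselves: among the 30000 pooled regions, 7005 shared the highest −log10 q-value, and 4447 of those also stood in the list kept at a set irreproducible discovery rate (IDR), which leaves the 2558 regions called intermediate regions below. The assay was chromatin immunoprecipitation with sequencing (ChIP-seq) against GFP in mixed-sex Drosophila melanogaster embryos aged 0 to 24 h that carried the homeobox gene bsh tagged with GFP at its C terminus. There was 1 group with 2 biological replicates, and chromatin had been sonicated to between 200 and 800 bp. Every sample carried the tagged transgene, a possible control experiment named in the labels was not analysed here, and whether any region would also appear without the fusion protein was not tested. No read numbers are given in the lists, and the depth behind each value is unknown.

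bsh (brain-specific homeobox) encodes a homeodomain transcription factor, and homeodomains of its broad class bind short AT-rich sites around a TAAT core. In the fly optic lobe the gene is known for specifying the identity of lamina neurons. IDR analysis compares the order of peaks in replicate experiments and seeks a set whose places hold up in both. A q-value instead judges a peak's enrichment against background within 1 list. A region can therefore pass the q-value and fall below the IDR threshold. In whole-embryo chromatin, peaks of many factors also fall on open promoters and enhancers, which often carry GA repeats bound by GAGA factor, the product of Trl.

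Summit sequences of 9 of the named regions are shown first, as examples. Each line below is the window that reaches 100 bp to each side of the summit, on the plus strand of dm6 in the RefSeq copy of the assembly, and capitals mark any of 5 searched words on either strand: the homeodomain word TAATTA, the GAGA factor word GAGAGA, and the words ACACTG, then AGTGTA, and then GTGCAC. On the other strand GAGAGA reads TCTCTC, the word ACACTG reads CAGTGT, and the word AGTGTA reads TACACT, while the remaining words read the same on both. The window upstream of bsh itself is shown because bsh is the tagged gene. The windows named for CG9663, CG31038, rdo, mirr and GNBP2 are from the 12 regions of highest signal, and those named for Cat, mrt and ct are from regions that sit beside a stronger peak. Of the 13 windows that could be printed under the naming rule, 8 held at least 1 of these words and 5 held none, and the windows of GNBP2 and ct are examples without one. Names are those of the nearest annotated transcription start site (TSS).
bsh: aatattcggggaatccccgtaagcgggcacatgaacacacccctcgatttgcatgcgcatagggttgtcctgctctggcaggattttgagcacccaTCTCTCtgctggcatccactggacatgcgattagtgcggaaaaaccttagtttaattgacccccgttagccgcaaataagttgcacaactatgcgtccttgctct
CG9663: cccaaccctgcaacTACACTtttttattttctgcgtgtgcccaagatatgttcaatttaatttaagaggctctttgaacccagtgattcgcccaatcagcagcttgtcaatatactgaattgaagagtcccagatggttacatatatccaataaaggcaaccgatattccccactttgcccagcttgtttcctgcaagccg
CG31038: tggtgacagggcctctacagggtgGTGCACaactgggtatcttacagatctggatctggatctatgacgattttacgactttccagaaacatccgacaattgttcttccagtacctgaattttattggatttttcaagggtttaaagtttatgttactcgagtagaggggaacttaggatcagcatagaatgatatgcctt
rdo: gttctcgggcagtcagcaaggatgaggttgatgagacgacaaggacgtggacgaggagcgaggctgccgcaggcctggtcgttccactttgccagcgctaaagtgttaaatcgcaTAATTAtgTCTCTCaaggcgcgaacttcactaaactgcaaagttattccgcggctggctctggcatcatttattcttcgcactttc
mirr: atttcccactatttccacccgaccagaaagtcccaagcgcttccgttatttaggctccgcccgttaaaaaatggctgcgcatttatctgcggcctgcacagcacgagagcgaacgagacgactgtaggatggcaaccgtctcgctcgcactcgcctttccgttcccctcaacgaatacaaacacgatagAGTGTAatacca
GNBP2: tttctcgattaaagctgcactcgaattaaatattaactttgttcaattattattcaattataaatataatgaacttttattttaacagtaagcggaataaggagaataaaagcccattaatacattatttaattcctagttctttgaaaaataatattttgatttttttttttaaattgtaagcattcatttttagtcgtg
Cat: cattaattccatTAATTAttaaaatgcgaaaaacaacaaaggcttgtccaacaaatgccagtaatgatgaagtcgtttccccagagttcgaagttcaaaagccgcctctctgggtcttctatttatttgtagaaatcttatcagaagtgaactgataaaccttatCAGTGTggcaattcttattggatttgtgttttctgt
mrt: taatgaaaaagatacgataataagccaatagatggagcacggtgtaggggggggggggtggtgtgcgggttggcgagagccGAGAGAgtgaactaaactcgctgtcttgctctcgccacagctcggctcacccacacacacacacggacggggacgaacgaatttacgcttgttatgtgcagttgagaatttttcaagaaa
ct: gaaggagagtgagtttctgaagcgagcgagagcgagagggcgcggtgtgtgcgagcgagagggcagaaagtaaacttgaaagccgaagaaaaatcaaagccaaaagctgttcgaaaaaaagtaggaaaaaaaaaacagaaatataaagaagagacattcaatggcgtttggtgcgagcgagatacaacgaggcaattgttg

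The bsh window spans 2L:19769278-19769478, and it held a GAGA factor word and no homeodomain word, at a GC content of 50.7%. The CG9663 window spans 2L:3300007-3300207 within an intron of CG9663, and the CG31038 window spans 3R:29894441-29894641 in a promoter. The rdo window spans 2L:18038649-18038849 in an intron of rdo, and it held both TAATTA and a GAGA factor word. The mirr window spans 3L:12653229-12653429 in intergenic sequence 40310 bp from the nearest start site, that of mirr, a homeobox gene of the Iroquois complex. The GNBP2 window spans 3L:18675476-18675676 in a promoter, at a GC content of 21.9%. The Cat window spans 3L:18823028-18823228 in the catalase gene, and it held the homeodomain word as well as the reverse of ACACTG. The mrt window spans 3R:27281319-27281519 in a promoter and held GAGAGA. The ct window spans X:7604809-7605009 in intergenic sequence.

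In the pooled list the 2558 intermediate regions were an unbroken block of ranks, from 4448 to 7005 by deposited signal value. Their signal ran from 90.0 to 119.6 with a median of 102.2 and quartiles of 95.8 and 110.1, a 1.33-fold range. The 4447 IDR regions ranked 1 to 4447 and covered signals from 119.6 to 2130, and the 2558 regions next in rank covered 72.6 to 90.0. The IDR list thus ended at a pooled rank, and membership alone does not say how far the replicates agreed on a single region. Among IDR regions the worst matched rank was 25672 in replicate 1 and 21787 in replicate 2. Of these regions, 54 were among the 4447 strongest of neither replicate. The signal is the authors' own value per region, on a scale that the sources used here do not give. It serves only for order within a list.

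**Figure D1:**
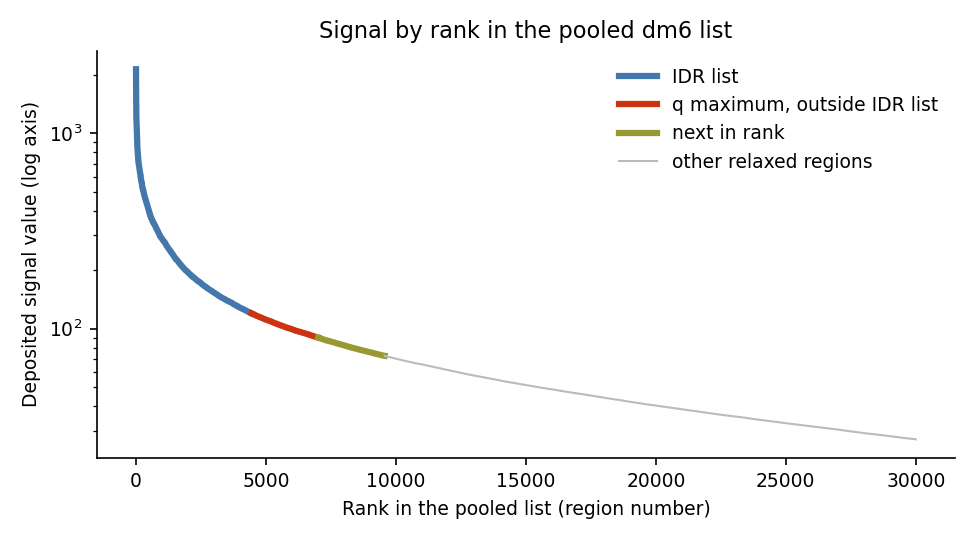
Deposited signal value (log axis) against rank for the 30000 pooled dm6 regions. The intermediate regions (q maximum, outside IDR list) continue the curve of the IDR list from rank 4448 to rank 7005, with signals from 119.6 down to 90.0 and no step at either end.

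Both borders fell between regions of nearly equal signal. The last regions inside the IDR list lay at the Npc2b promoter (signal 119.631, replicate ranks 6709 and 4339) and in an intron of Tis11 (119.624, replicate ranks 2942 and 6599). The strongest intermediate regions lay at the promoter of mei-W68, the Spo11-type gene of meiotic recombination (119.621, replicate ranks 14314 and 2556), and in an intron of CG9663 (119.608, replicate ranks 2575 and 16881). At the lower border the last intermediate regions lay at the promoter of Hrb27C, an RNA-binding protein gene (90.0403), and in an intron of Ten-m, a teneurin gene (90.0249). The next region, 8061 bp from the CG3092 start site, had a signal of 90.0188, and the one after it, at the Plp promoter, had 90.0166.

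The q-value that set the lower border can be read beside the number of regions that share it. In the pooled list the highest −log10 q-value was 4.14641, a q of 7.14e-05, and this q times 7005 came to 0.5. The next value, 3.66935 at rank 7006, times that rank came to 1.5. In replicate 1 the highest value, 4.08418, was shared by 6070 regions and its q times that number was also 0.5. In replicate 2 the highest value, 2.74565, was shared by 8630 regions and the product was 15.5. The sources used here do not say how the authors' caller built this column.

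Most intermediate regions had the caller's usual width. In all, 2470 of 2558 (96.6%) were 440 bp wide, 79 were narrower and 9 wider, over a range of 110 to 675 bp. The same width was held by 54.9% of IDR regions and 98.6% of the regions next in rank. Across the large chromosome arms the ratio of their share to the share of assembled length lay between 0.914 and 1.10, and on chromosome 4 it was lower. That small, largely heterochromatic chromosome held 7, a ratio to length of 0.272 (exact binomial 95% interval 0.109 to 0.559), against 15 IDR regions (0.335, 0.188 to 0.552) and 24 of the regions next in rank (0.932, 0.598 to 1.38). The X held 411 (0.914, 0.834 to 0.998), whereas the IDR list was at 1.07 (1.00 to 1.13) there. These intervals cover counting error only.

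Nearly every intermediate region had a counterpart in each replicate, but at middling rank. Within replicate 1, 2553 (99.8%) overlapped a region by at least 1 bp, and within replicate 2, 2534 (99.1%). The 2529 matched in both made up 98.9%, 24 were matched in replicate 1 alone, 5 in replicate 2 alone, and none in neither. Such matches were about as common in the bands beside them, at 99.6% of IDR regions and 97.4% of the regions next in rank. Of the lowest-ranked regions 33.5% were matched in both. For the intermediate regions the matched regions had a median rank of 5851 in replicate 1 (quartiles 4466 and 7579) and of 5796 in replicate 2 (quartiles 4272 and 7895). IDR regions had median ranks of 2120 and 2128, and the regions next in rank of 8404 and 8339. The choice of regions rests on ranks from these same experiments, so these values describe the group and are not tested.

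Counted by each replicate's own 4447 strongest regions, only 214 intermediate regions (8.37%) were matched in both sets, against 74.8% of IDR regions and 6.14% of the regions next in rank. Another 418 (16.3%) were matched in replicate 1's set alone, 497 (19.4%) in replicate 2's set alone, and 1429 (55.9%) in neither. Counted by each replicate's own best q-value, 942 (36.8%) reached it in both, 433 (16.9%) in replicate 1 alone, 1100 (43.0%) in replicate 2 alone and 83 (3.24%) in neither. Of IDR regions 94.3% reached it in both, and of the regions next in rank 12.1%. The share in replicate 2 alone was 4.00% of IDR regions and 40.5% of the regions next in rank. The replicate 2 list had more regions at its best q-value, as given above.

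The intermediate regions fell into 2 kinds by their neighbours. Of the 2558, 253 (9.89%, Wilson 95% interval 8.79 to 11.1) overlapped an IDR region, with summits 199 to 313 bp from the nearest IDR summit and quartiles of 200 and 210 bp. In 252 of these 253 in replicate 1, and 251 in replicate 2, the matched replicate region itself overlapped an IDR region. That was nearly given by the choice of these regions, because a match needs only 1 bp and takes the overlapping region of highest signal. Whether a replicate rank is the region's own or that of the stronger adjoining peak was not tested. The 253 had median ranks of 2244 and 2274. Of them, 192 (75.9%) were matched in both replicates' top sets and 4 in neither. The 2305 that overlapped no IDR region had median ranks of 6118 and 6069, and only 22 of them (0.954%) were matched in both top sets. Of those 2305, 386 (16.7%) were in replicate 1's top set alone, 472 (20.5%) in replicate 2's alone, and 1425 (61.8%) in neither. The 2 kinds had like signals, with medians of 103.1 and 101.9, and like promoter shares, 39.9% and 37.6%.

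**Figure D2:**
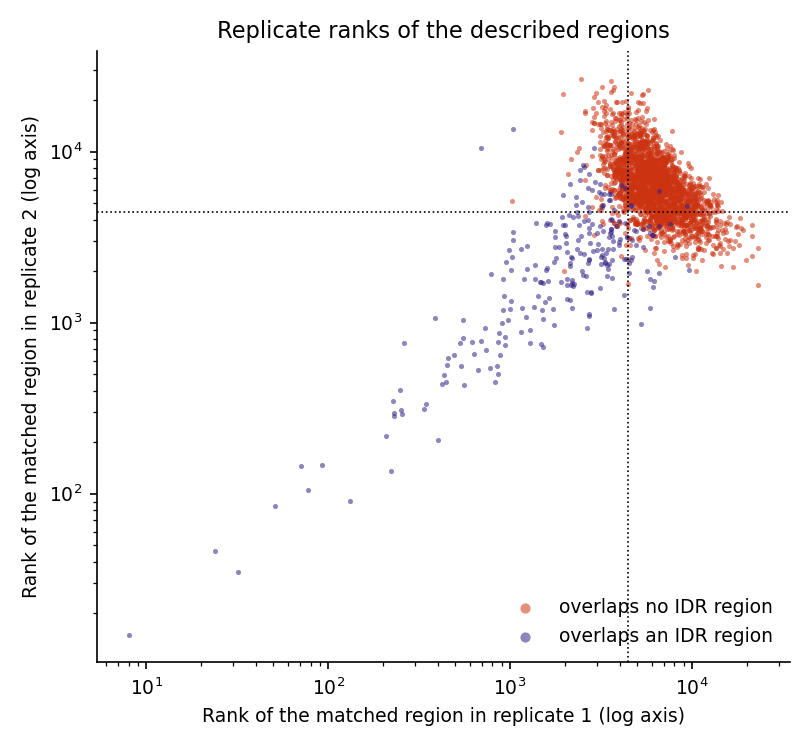
Rank of the matched region in replicate 1 (x, log axis) and replicate 2 (y, log axis) for the 2529 intermediate regions matched in both; dotted lines mark rank 4447. Of the 253 regions that overlap an IDR region, 192 lie to the left of and below both lines, while the 2305 others gather around ranks 6118 and 6069, with 22 of them in that corner.

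Distances to the IDR list were otherwise wide. The median distance from an intermediate summit to the nearest IDR summit was 4074 bp (quartiles 1335 and 12477 bp), 266 (10.4%) lay within 500 bp and 768 (30.0%) beyond 10 kb. Of the regions next in rank, 230 (8.99%) overlapped an IDR region, and of the 2558 lowest-ranked regions 94 (3.67%) did. Intermediate summits were also mostly single, since 250 (9.77%) had another within 1 kb and the median gap between neighbours was 8410 bp.

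The 6 intermediate regions with the best pair of matched replicate ranks all overlapped an IDR region with its summit about 200 bp away. That in an intron of Cat, which encodes the hydrogen peroxide-degrading enzyme catalase, had pooled rank 5458 (signal 105.4) and replicate ranks 8 and 15, with an IDR summit 203 bp away. Those by Tina-1 (replicate ranks 32 and 35), in an intron of Trl (24 and 46), 3519 bp from the start of the homeobox gene ct (51 and 85), in the 5′ untranslated region (UTR) of grp, the fly checkpoint kinase gene (77 and 105), and at the mrt promoter (131 and 91) had IDR summits 200 to 209 bp away. In each of them a stronger pooled summit thus stood within 209 bp. The matched region also had a higher signal in either replicate than the intermediate region had in the pool. At Cat these were 810 and 710 against 105.4, and at Trl 628 and 436 against 114.3. Whether the ranks are those of the adjoining peaks was not tested.

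The regions of highest signal showed how far the replicates can part. At the mei-W68 promoter the replicate signals were 32.3 and 78.9, and in the CG9663 intron 97.2 and 24.1, so each stood high in a different replicate. The promoter region of CG31038 had ranks 4144 and 6140. A region 20267 bp from the Cyp12e1 start site had 4241 and 7087. In an intron of mam, the Mastermind coactivator of Notch signalling, the region (ranks 1242 and 2060) overlapped an IDR region 199 bp away. In an intron of rdo the region had rank 3209 in replicate 1 and no counterpart in replicate 2. The others were near mirr (4253 and 5191), at the promoter of dmGlut, a glutamate transporter gene (3545 and 5805), at the RhoGAP16F promoter (4351 and 4660), at the GNBP2 promoter (3058 and 7760), in an intron of px (3123 and 10377) and in an intron of Oatp74D (4263 and 3325). Only the regions of mam and Oatp74D were matched among the 4447 strongest of both replicates. The Oatp74D region was 110 bp wide and had an IDR summit 286 bp away. Whether these ranks are those of the adjoining peaks was not tested.

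The widest splits between replicates were of a size that spans most of a list. The CG3777 promoter region ranked 2455 in replicate 1 and 26713 in replicate 2, and that in an intron of brat, a translational repressor and tumour suppressor gene, 3184 and 23968. In the other direction, a region in an intron of kirre, an immunoglobulin-family gene of myoblast fusion, ranked 23049 and 1670. A region 1016 bp from the start of nrv1, a sodium pump subunit gene, ranked 23134 and 2716, and one in an intron of bun, a TSC22-family gene, 21357 and 2461.

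At bsh itself, which lies at 2L:19765776-19769067 on the minus strand, 1 intermediate region was found in or within 10 kb of the gene. It spans 2L:19769158-19769597, and its summit at 19769378 lay 311 bp upstream of the start site. Its signal was 98.1 at pooled rank 6106, with rank 6122 (signal 57.5) in replicate 1 and rank 8476 (signal 39.0) in replicate 2. The nearest IDR summit was 4847 bp away. Both replicates thus placed the promoter region of the tagged gene outside their 4447 strongest regions.

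By annotation the intermediate regions were spread much as the IDR regions were, with most summits at promoters and in introns. Promoter summits, within 500 bp of a protein-coding TSS, numbered 967 (37.8%, Wilson 95% interval 35.9 to 39.7), against 36.9% of IDR summits (odds ratio 1.04, two-sided Fisher's exact test with Benjamini-Hochberg adjustment over 12 tests, adjusted p = 0.709), 36.4% of the next in rank (1.06, adjusted p = 0.51) and 17.7% of the lowest-ranked. Intron summits numbered 1026 (40.1%) against 43.0% in the IDR list (0.888, exact test, adjusted p = 0.116), and intergenic summits 486 (19.0%) against 18.5% (1.03, adjusted p = 0.76). Alternatives were adjusted over the classes against the IDR list alone, a smaller set than the 12 tests above. Whether they pass over 12 tests was not tested. With that adjustment the intron difference passed the exact test, in the same direction, under other settings. The odds ratios and adjusted p were 0.870 and 0.0163 (promoters of 200 bp), 0.880 and 0.0348 (start sites of all annotated genes) and 0.854 and 0.0122 (without replicate 1). In the other 4 alternatives this exact test was not passed, at 0.921 and 0.24 (promoters of 1000 bp), 0.920 and 0.397 (regions above the median signal), 0.889 and 0.0643 (regions that overlap no IDR region) and 0.924 and 0.284 (without replicate 2). The median distance to a TSS was 1346 bp, 397 summits (15.5%) lay within 100 bp of one and 389 (15.2%) beyond 10 kb.

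Exonic summits were few in all bands of the upper list. Intermediate summits lay in coding exons 19 times (0.743%, 0.476 to 1.16), IDR summits 7 times (0.157%), the next in rank 17 times (0.665%) and the lowest-ranked 134 times (5.24%). The share was higher than in the IDR list (odds ratio 4.75, Fisher's exact test, adjusted p = 0.00331) and was not shown to differ from the regions next in rank (1.12, adjusted p = 0.867). When the bands were rebuilt by rank in a single replicate, the odds ratio against the strongest regions was 1.89 without replicate 1 (exact test, adjusted p = 0.215) and 1.74 without replicate 2 (adjusted p = 0.287). In 5′ UTRs lay 28 (1.09%) and in 3′ UTRs 32 (1.25%), with odds ratios against the IDR list of 1.69 in both cases (exact test, adjusted p = 0.159 and 0.152). The 3′ UTR difference passed the exact test with promoters of 200 bp (1.75, adjusted p = 0.0279) or 1000 bp (1.96, adjusted p = 0.0451). Those values, like the other alternatives, were adjusted over the classes against the IDR list alone. In the other 5 alternatives the 3′ UTR odds ratio was 1.22 to 1.75 with exact-test adjusted p from 0.0643 to 0.462. The strongest coding-exon regions, picked after their values were seen, lay in slmb, an F-box gene of the ubiquitin pathway (signal 118.2, replicate ranks 4370 and 8667), in zip, the nonmuscle myosin heavy chain gene (116.6, ranks 8424 and 4494) and in CG12851 (115.0, ranks 4049 and 7506).

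**Figure D3:**
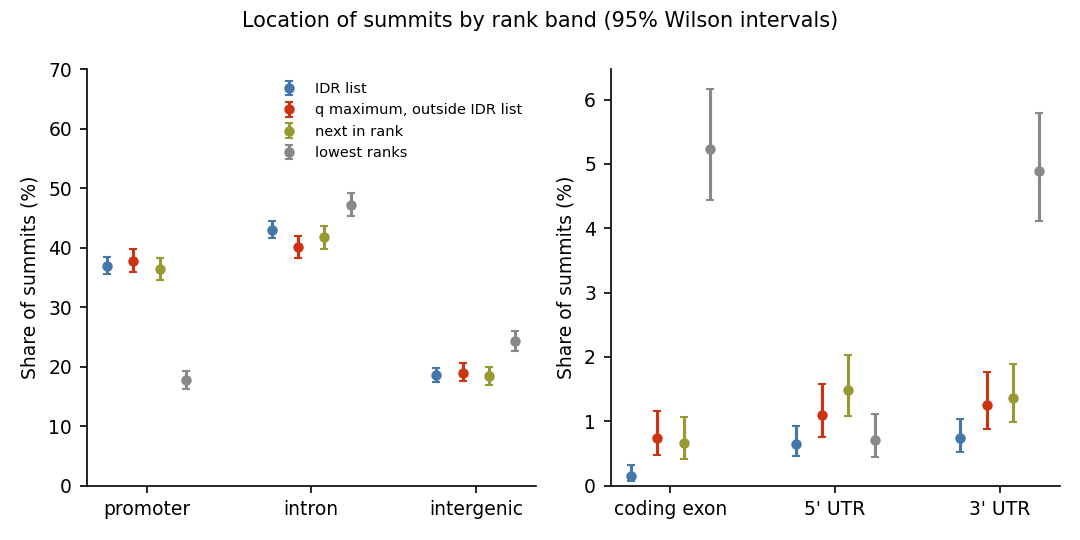
Share of summits (y, %) by annotation class for the 4447 IDR regions, the 2558 intermediate regions, the 2558 next in rank and the 2558 lowest-ranked, with Wilson 95% intervals. The intermediate regions have 37.8% of summits at promoters against 17.7% of the lowest-ranked, and 0.743% in coding exons against 0.157% of the IDR list.

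In sequence, intermediate summits held GA repeats and ACACTG more often than their flanks did. The homeodomain word was less frequent than in the flank 600 bp to the right, a difference that did not pass in every setting. Each of 12 words of 6 bases was looked for on both strands within 100 bp of the summit and in an equal window 600 bp to the right, and both windows were compared by McNemar's exact test (two-sided), with p-values adjusted over the 12 words by the Benjamini-Hochberg method. GAGAGA was found at 405 summits (15.8%) and 219 flanks (8.56%), a ratio of 1.85 (exact test, adjusted p = 3.19e-15). ACACTG was found at 391 (15.3%) and 193 (7.54%), a ratio of 2.03 (exact test, adjusted p = 1.005e-17). AGTGTA was found at 12.9% and 7.08% (1.82, exact test, adjusted p = 1.02e-11) and GTGCAC at 7.08% and 4.61% (1.53, adjusted p = 0.000583). The GTGCAC ratio was 1.44 (exact test, adjusted p = 0.0656) within 50 bp of the summit and 1.30 (adjusted p = 0.39) at promoters alone. Over all 30000 pooled summits these words were held by 11.9% (GAGAGA), 11.2% (ACACTG), 10.2% (AGTGTA) and 6.02% (GTGCAC). The last 3 words had led a ranking at IDR summits in earlier results of these data, so their rise here is no independent evidence. ACACTG and AGTGTA overlap when joined as TACACTG, which was present at 130 of the 391 intermediate summits with ACACTG.

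The core homeodomain word TAATTA was at 298 summits (11.6%) and 363 flanks (14.2%), a ratio of 0.821 (McNemar's exact test, adjusted p = 0.0164). Of all 30000 pooled summits 12.4% held it, at a ratio of 0.903. The ratio was 1.08 at IDR summits, 0.943 at the next in rank and 0.854 at the lowest-ranked. The deficit at intermediate summits did not pass the exact test with the left flank (0.854, adjusted p = 0.0726), with flanks 1000 bp away (0.923, 0.176), at promoters alone (0.764, 0.129), away from promoters (0.852, 0.122), in regions above the median signal (0.806, 0.0782) or without replicate 2 (0.895, 0.217). The NK-type variant CAATTA, at 15.9% of summits and 19.1% of flanks, had a ratio of 0.832 (exact test, adjusted p = 0.00673), which was 0.879 with the left flank (adjusted p = 0.0749) and 1.01 at promoters alone (adjusted p = 1). Elsewhere the CAATTA ratio was 0.852 at IDR summits, 0.861 at the next in rank, 0.933 at the lowest-ranked and 0.857 over all pooled summits. The Bicoid-type word TAATCC had 0.752 (exact test, adjusted p = 0.0256). It no longer passed the exact test within 50 bp of the summit (0.802, adjusted p = 0.357), at promoters (0.794, 0.39), away from them (0.725, 0.0672) or without regions that overlap an IDR region (0.762, 0.052). The DREF-type word ATCGAT (0.806, adjusted p = 0.0841), the Zelda-type CAGGTA (0.926, 0.756), the E-box CAGCTG (0.954, 0.756), the forkhead-type TGTTTA (1.02, 0.764) and the GATA-type AGATAA (1.01, 0.965) did not pass the exact test. ATCGAT passed the exact test away from promoters (0.642, adjusted p = 0.0102) and in regions above the median signal (0.650, 0.0156). With flanks 1000 bp away ATCGAT (0.840, exact test, adjusted p = 0.0452) and TGTTTA (1.10, 0.0395) also passed. In that setting each summit was counted once per flank, so the pairs were not independent and these p-values overstate the number of regions.

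Set against IDR summits, the intermediate summits did not differ in any of the 12 words after adjustment (Fisher's exact test), and 2 words had an unadjusted p below 0.05. TAATTA was at 11.6% of intermediate and 13.6% of IDR summits (odds ratio 0.834, exact p = 0.0162, adjusted p = 0.194). Within 50 bp of the summit, a window chosen after seeing the data, it was at 5.55% and 7.35% (odds ratio 0.741, exact test, adjusted p = 0.0236), and within 200 bp the odds ratio was 0.998 (adjusted p = 1). In the plot of word share by distance, the IDR regions had 7.35% at the centre, 4.63% at 200 bp to the right and 6.97% at 1000 bp to the right, so the centre was close to the far flank. The intermediate regions had 5.55%, 5.16% and 5.75% at these places. Set against the regions next in rank, a comparison added after seeing the data, GAGAGA was at 15.8% and 12.9% (odds ratio 1.27, exact test, adjusted p = 0.0331). That held in 4 of 5 alternatives and was 1.20 (exact test, adjusted p = 0.0577) within 200 bp of the summit. AGTGTA was at 12.9% and 10.4% (1.27, exact test, adjusted p = 0.0414) and passed in none of the 5 alternatives, with odds ratios of 1.14 to 1.27 and adjusted p from 0.0551 to 0.622.

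**Figure D4:**
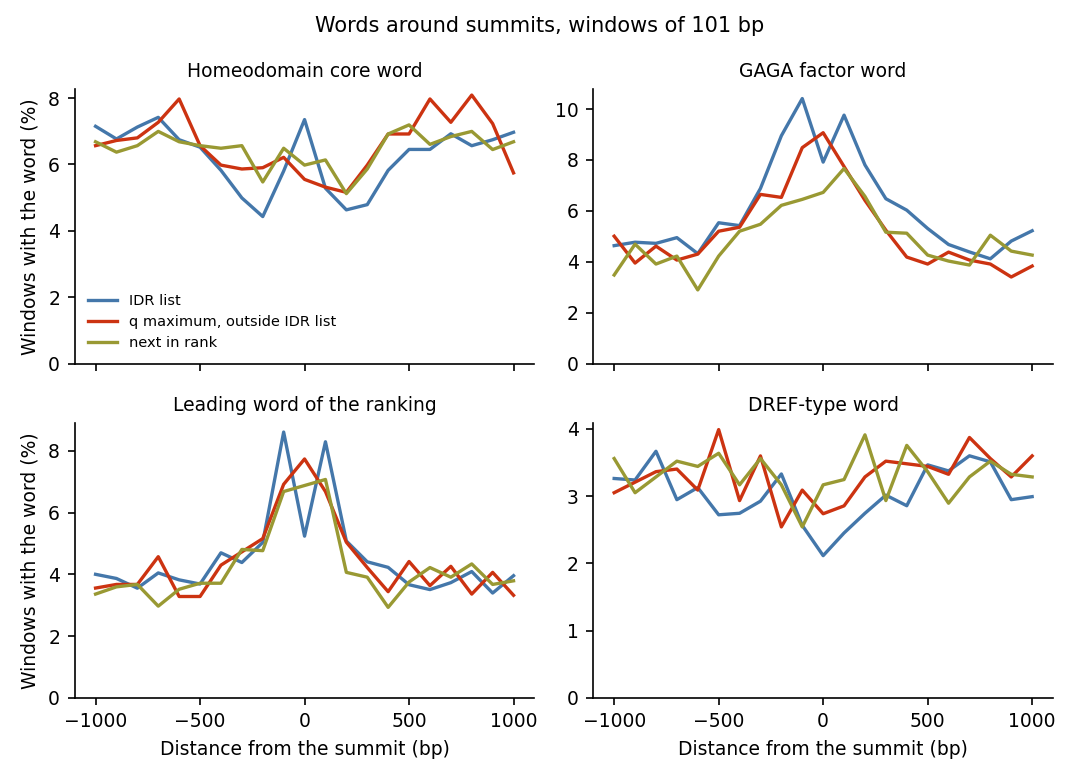
Share of 101-bp windows (y, %) that hold a word, by distance from the summit (x, bp), for IDR regions, intermediate regions and those next in rank. In the intermediate regions the GAGA factor word is at 9.07% at the summit and 4.38% at 600 bp to the right, and the homeodomain word is at 5.55% and 7.97%.

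A ranking of all 2065 words of 6 bases with enough flank counts, given as a description, put ACACTG in place 1 (2.03), GAGAGC in place 2 (1.96), AGAGAG in place 3 (1.92) and GAGAGA in place 6. The words in places 2 to 8 overlap each other as parts of GA-rich runs. TAATTA stood in place 1691. Mean GC was 41.0% at intermediate summits and 41.5% in their flanks, while IDR summits had 38.4% against 41.7%. The part of base composition in the word ratios was not tested.

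The intermediate regions added 1320 genes to those near a summit, mostly by 1 summit a gene. A summit in or within 2 kb of the gene was found for 2537 of 13945 protein-coding genes (18.2%), and 1217 of them (48.0%) had an IDR summit too. The other 1320 genes (9.47%) had an intermediate summit and no IDR summit, of which 1116 had 1 and 204 had 2 or more. Genes with a summit of either kind numbered 4790 (34.3%), against 3470 (24.9%) with an IDR summit. The equally many regions next in rank had a summit at a like number of genes without an IDR summit, 1335. Counting gene bodies alone, the 1320 became 624. Genes with intermediate summits alone had a median length of 2672 bp, and all genes of 2166 bp. The most intermediate summits without an IDR summit were 5 at rdgB, a phosphatidylinositol transfer protein gene needed in photoreceptors (signals 94.1 to 117.3), 5 over the 136204 bp of Dys, the dystrophin gene (96.4 to 114.1), and 4 at each of 5 genes, of which CG10011 had the strongest summit (96.4 to 118.3).

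Gene lists are given by counts, beside the 18.2% of all genes with an intermediate summit and the 9.47% with no IDR summit besides, and no list was tested. Long genes offer more room for a summit, and genes that adjoin share regions. Of 91 homeobox genes, 26 had an IDR summit, 21 an intermediate one, and 11 (12.1%) an intermediate one alone. Among these the strongest were at E5, a paralog of ems (signal 117.0, ranks 3700 and 12292), near Dr, the Msh-type gene of dorsal neuroblasts and muscle (115.1, ranks 4804 and 6232), by ro, an eye patterning gene, at the Rb97D start site (113.2, ranks 7496 and 4026), and in an intron of ara of the Iroquois complex (109.7, ranks 8043 and 4066). E5 was high in replicate 1 and the regions by ro and in ara in replicate 2.

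Among the neural lists, intermediate summits alone were found at 3 of 26 optic lobe and lamina identity genes, 2 of 27 neuroblast and temporal patterning genes, 4 of 23 pan-neuronal and synaptic genes, 4 of 33 axon guidance and adhesion genes and 2 of 14 glial genes. The optic lobe genes were erm, a zinc finger gene of intermediate progenitors (99.8, ranks 4190 and 8409), eya, a retinal determination gene (99.4, in its 3′ UTR, ranks 6061 and 9126), and salm, a spalt gene (94.5, ranks 5566 and 10569). All 3 stood higher in replicate 1 than in replicate 2. The neuroblast genes were wor, a Snail-family gene (118.8, ranks 4100 and 5311), and insc, an asymmetric division gene, by a summit 60 bp from the start of sktl (118.0, ranks 4823 and 5331).

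The pan-neuronal and synaptic genes were Sh, the Shaker potassium channel gene (113.0, rank 5939 in replicate 1 and no counterpart in replicate 2), Csp, a synaptic vesicle chaperone gene (107.8, ranks 6496 and 3625), futsch, a microtubule-associated protein gene (98.2, ranks 6864 and 6884, with its summit 10 bp from the start site), and unc-13, a vesicle priming gene, by a summit 260 bp from the Gyf start (91.2, ranks 6834 and 6348). The axon guidance genes were comm, which sorts the Robo receptor at the midline (111.1, ranks 5890 and 5685), Eph, a receptor tyrosine kinase gene (109.0, ranks 12883 and 3226), Nrg, the neuroglian gene (104.8, ranks 5975 and 7342), and trn, a leucine-rich repeat gene (92.2, ranks 5695 and 15385). The regions of futsch and comm had near-equal ranks in the 2 replicates, and those of Eph and trn were far apart in opposite directions. The glial genes were Nrx-IV, a septate junction gene (108.1, ranks 7411 and 4325), and nrv2, by the summit nearest nrv1 described above.

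Genes of the Dpr and DIP families, whose immunoglobulin-type surface proteins bind each other and are known from synaptic partner choice, were at 0. None of 32 had an intermediate summit, which allows a share of up to 9.38%, and 4 had an IDR summit, at a median gene length of 32525.5 bp. Notch pathway genes had 7 of 26 with an intermediate summit, but 17 had an IDR summit, and Su(dx), a ubiquitin ligase gene, was left with an intermediate summit alone (96.1, no counterpart in replicate 1, rank 7947 in replicate 2).

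Among the genes that pattern the segments (gap, pair-rule and segment polarity), 4 of 27 had intermediate summits alone. These were btd, a head gap gene (115.0, rank 4265 in replicate 1 and no counterpart in replicate 2), bcd, the anterior determinant (101.4, ranks 8330 and 5396), en, a segment polarity homeobox gene, 17 bp from its start site (98.5, ranks 8685 and 5310), and ems, a head gap homeobox gene, 56 bp from its start (98.0, ranks 5583 and 7704). The dorsoventral, BMP and EGF list, where 17 of 24 genes had an IDR summit and 13 an intermediate one, was left with rho, the rhomboid protease gene of EGF ligand release (105.4, ranks 5902 and 6937). Of 32 mesoderm and muscle genes 3 had intermediate summits alone, Dr, rst, an adhesion gene of muscle and eye (103.4), and kn, a COE-family transcription factor gene (101.6), as did 3 of 17 trachea and epidermis genes, trh, the tracheal selector (118.0, ranks 5535 and 3944), vvl, a POU-domain gene (94.6, ranks 6391 and 6972) and salm. None of 12 gut genes did, which allows up to 25%, and 3 of them had an intermediate summit beside an IDR summit.

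Of the lists of general cell functions, ribosomal protein genes had the highest counts. Of 93, 50 had an IDR summit, 29 (31.2%) an intermediate summit and 19 (20.4%) an intermediate summit alone, at a median gene length of 1318 bp. The strongest of the 19 were RpS9 (117.9, ranks 4605 and 5745), the adjoining near-identical genes RpS14a and RpS14b by 1 shared summit (116.7, ranks 4012 and 5378), and RpL6 (116.1, ranks 4685 and 6457). Each lay within 88 bp of a start site, and each stood higher in replicate 1. Mitochondrial ribosomal protein genes had 9 of 73 (12.3%) with an intermediate summit and 7 (9.59%) with that alone. The strongest of them lay nearest another gene's start: mRpL32 by qless (118.8), mRpL43 by CG30183 (115.5), mRpS26 by CG13698 (107.2) and mRpL18 by Taz (106.4). Cell cycle genes had 6 of 25 with an intermediate summit and 4 with that alone, namely twe, a Cdc25-type phosphatase gene (107.2), dap, a cyclin-dependent kinase inhibitor gene (104.8), and the mitotic kinase genes polo (95.1) and aurB (93.9). All but that of dap lay nearest another gene's start: 62 bp from EndoGI (twe), 257 bp from alphaSnap (polo) and 13 bp from Stam (aurB). Of 22 heat shock and chaperone genes 3 had an intermediate summit, and Hsf, the heat shock factor gene, had that alone (105.9, ranks 10949 and 3377).

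Genes of narrow adult or cuticle expression had the lowest shares with any intermediate summit other than the Dpr and DIP list. Odorant and gustatory receptor genes had 6 of 120 (5%) with an intermediate summit and 5 with that alone, of which the strongest were by Gr94a, 37 bp from the p53 start (115.9, ranks 2908 and 20931), Or45b (114.5), Or67a (96.4) and Or67c (92.5). Cuticle protein genes had 4 of 92 (4.35%), all without an IDR summit: Cpr66Cb, 33 bp from the Pex2 start (116.7, ranks 8324 and 2827), Cpr49Ae (108.2), Cpr57A, 116 bp from the CG13430 start (102.6), and Cpr49Ah (99.4).

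**Figure D5:**
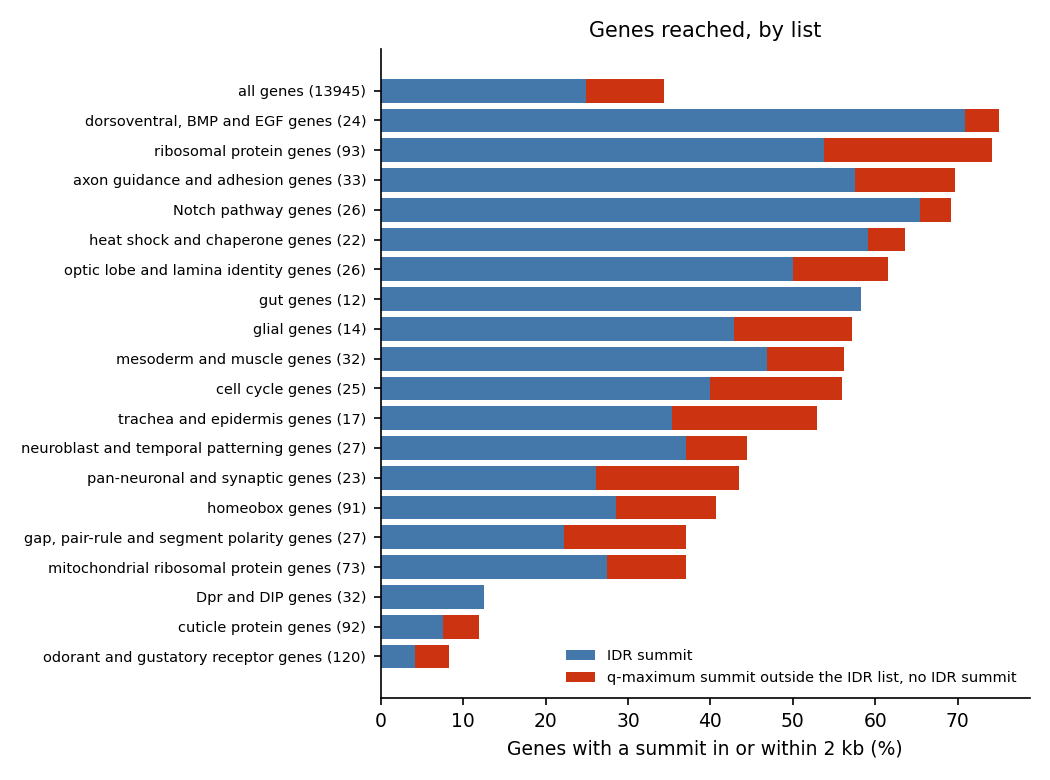
Share of genes (x, %) with an IDR summit (left bar) and with an intermediate summit but no IDR summit (right bar) in or within 2 kb, for all 13945 genes and 19 lists with their sizes in brackets. The right bar is 9.47% for all genes, 20.4% for ribosomal protein genes, 12.1% for homeobox genes and 0 for Dpr and DIP genes.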

How the data were processed

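The deposited peak lists came from ChIP-seq of 2 biological replicates of 1 group. The authors deposited a relaxed list for each replicate and for the pool, and IDR-thresholded lists. By column layout each region has a signal value, deposited by the authors' caller, and a q-value deposited as −log10. Of the aligner, caller and IDR cutoff the sources used here name none. A p-value column of these files was not used. Regions were taken where the pooled −log10 q-value equalled its maximum and the IDR list lacked them.

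The members, words and gene lists were chosen with earlier results of these data known. Genes were the 13945 protein-coding genes of Ensembl release 115 (BDGP release 6, dm6), with sequence from RefSeq's copy, and positions count from 1. A region's replicate match was the overlapping region (1 bp or more) of highest signal. Nearest genes were taken from the protein-coding genes used here. Summits within 500 bp of a TSS were called promoter, then coding exon, UTR, intron or intergenic. Fisher's exact tests compared locations and words between bands, and McNemar's exact tests compared words with flanks, all two-sided, with Benjamini-Hochberg adjustment over 12 tests and a threshold of 0.05. Location alternatives were adjusted over the classes of the IDR comparison alone. These tests take regions as units and do not measure variation between embryo collections. Regions named are the 12 of highest signal, the 6 best in both replicates, the 3 widest splits each way, those within 10 kb of bsh, the borders, the 3 genes with most summits, and up to 4 genes a list with intermediate and no IDR summits. Of these, 1 region is not reported here. Windows that overlapped a UTR or lay on arm 2R were not printed. Of the list members, 7 symbols were not analysed here. Intervals are 95% (Wilson unless stated) and cover counting error only. Scripts were tested on simulated regions and ran in Python 3.11.15, using scipy 1.17.1, numpy 2.4.6 and pandas 2.3.3, with figures from matplotlib 3.10.9. Alternatives changed distances, windows, flanks, matching, gene reach, build, subsets and replicates.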

Additional observations from a re-analysis of the deposited data

How the results depend on the processing

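Of 175 alternative values with a test, 123 kept their direction and side of the threshold, 10 newly passed it, 21 no longer passed and 21 changed direction. Location alternatives were adjusted over fewer tests than the reported values, so a new pass among them can come from the adjustment. Of 21 alternative counts or shares without a test, 15 stayed within the bounds set for them and 6 moved beyond. The words past the threshold fell from 7 to 3 at promoters alone, and without either replicate they were 6 to 7. The share of regions matched in replicate 1 was 97.1% with 50% overlap and 93.7% with summits within 100 bp, and in replicate 2 it was 95.9% and 89.8%. Genes with an intermediate summit alone numbered 624 for gene bodies and 1274 to 1383 without a replicate. No value that changed direction had passed its test as reported, with the exception of CAATTA. The intergenic odds ratio was 0.960 with promoters of 200 bp, 0.954 in regions above the median signal and 0.971 to 1.14 without either replicate. At promoters alone CAATTA was at 1.01, ATCGAT 1.01, CAGGTA 1, CAGCTG 1.08, TGTTTA 0.985 and AGATAA 0.836. CAGCTG was at 1.13 within 200 bp of the summit, 1.01 with flanks at 1000 bp, 1 above the median signal, 1.01 without replicate 1 and 1.04 without replicate 2. AGATAA was at 0.977 with the left flank, 0.964 without replicate 1 and 0.922 without replicate 2. CAGGTA was at 1.03 above the median signal and 0.965 to 1.06 without either replicate, and TGTTTA at 0.994 without replicate 1 and 0.948 without replicate 2. The cause was not tested. No paired analysis was possible because all samples belong to 1 group. Depth is unknown, so no limit from it can be given, and leaving out a replicate meant ranking by the other's own list.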

Other observations

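On the older build dm3, the same rule gave 1952 regions from 6598 at the pooled q-value maximum and 4646 in the IDR list, a difference of -23.7% from dm6. Their signal ran from 92.9 to 115.8 with a median of 102.5. The share of q-maximum regions left outside the IDR list was 29.6% on dm3 and 36.5% on dm6.

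Intermediate summits lay within 100 bp of a tRNA gene 8 times and of a snoRNA gene 5 times, against 5 and 3 times for the larger IDR list and 6 and 2 times for the regions next in rank. None of 2558 lay by a snRNA gene, which allows a share of up to 0.117%. Replicate 2 held 13 mitochondrial regions in its relaxed list and replicate 1 held 0, and none of the intermediate regions was mitochondrial.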
